A study of Mus musculus with 36 samples.

Results

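Brains of Gpt2 knockout mice that had received dm-αKG, a cell-permeable dimethyl ester of α-ketoglutarate, were compared with brains of wild-type mice that had received vehicle. The comparison asks what still separates treated knockouts from untreated wild types. It uses 18 of the 36 libraries in the series: 8 labelled knockout with dm-αKG (KO-aKG) and 10 labelled wild type with vehicle (WT-Veh). The other groups, 10 knockout with vehicle (KO-Veh) and 8 wild type with dm-αKG (WT-aKG), entered the same model and are used beside it. Members were all genes that passed a filter on low counts, 16255 in number. Treated mice had 600 mg per kg dm-αKG by the intraperitoneal route, tissue was taken at postnatal day 19, and 10 mg of brain gave the RNA. Genotype and treatment both differ between KO-aKG and WT-Veh, so their shares of a difference cannot be told apart from these groups alone. Not given in the sources used here are the deleted part of Gpt2, the strain background, the sex, the number of doses and the brain region of each piece. The labels speak of biological replicates without saying that every library is another animal, and the p-values speak only for the variation among these libraries.

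Gpt2 is the mitochondrial alanine transaminase, which converts pyruvate and glutamate to alanine and α-ketoglutarate and back. Alpha-ketoglutarate feeds the tricarboxylic acid cycle and is a cosubstrate of dioxygenases that act on DNA, histones and hypoxia-inducible factor. When amino acids run short or mitochondria are stressed, phosphorylation of the initiation factor eIF2 lets the transcription factor ATF4 be translated. ATF4 then switches on genes for amino acid uptake, amino acid synthesis and tRNA charging, and Ddit3, which encodes CHOP. Brain makes its own cholesterol, under the control of the SREBP2 pathway, and Stard4 encodes a sterol carrier in that pathway.

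Some libraries and groups stood apart before any gene was considered. KO-aKG libraries held 5.77 to 11.9 M counts and WT-Veh libraries 10.0 to 12.8 M, and mitochondrial ribosomal RNA took 14.4% to 21.2% of the counts in KO-aKG and 17.9% to 29.8% in WT-Veh. The mean log2 CPM of 23 cerebellum markers exceeded the overall mean of the series by over 1 log2 unit in 1 of 8 KO-aKG and 3 of 10 WT-Veh libraries. Long genes also read higher against short genes in WT-Veh than in KO-aKG. The mean log2 CPM of the longest tercile of genes minus that of the shortest tercile was 0.67 to 0.94 in WT-Veh, with a median of 0.83, and 0.48 to 0.68 in KO-aKG, with a median of 0.61. In WT-aKG it was 0.56 to 0.75, so the wild types differed in it with treatment too. Xist exceeded the Y-linked Ddx3y in 4 of 8 KO-aKG and 2 of 10 WT-Veh libraries. Of 93 genes named by a fixed rule and called, 68 were also called in the same direction without the samples high in cerebellum markers, 74 with 5 region and cell-type scores as covariates and 37 with the long-against-short measure as a covariate. Calls lost under the first and last of these are given with the genes below.

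KO-aKG differed from WT-Veh in 1263 genes, of which 712 were higher and 551 lower in KO-aKG. A gene was called at an adjusted p under 0.05 in edgeR's quasi-likelihood test over all genes. The calls were 7.77% of all genes tested, 4.38% higher and 3.39% lower, and the median log2 fold change over all genes was -0.04. Most called differences were small, with a median log2 fold change of 0.44 among the higher and -0.46 among the lower genes. Only 79 called genes passed 2-fold, 56 higher and 23 lower. In 138 genes (0.849% of those tested) no KO-aKG value overlapped a WT-Veh value, 115 with every KO-aKG library above and 23 with every one below, and 137 of these genes were called. On the CPM scale the authors deposited, limma called 854 genes higher and 25 lower with a pseudocount of 1, and the median over all genes there was 0.10. Leaving out 1 sample at a time gave 818 to 1449 calls, the fewest without KO-aKG replicate 8.

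**Figure D1:**
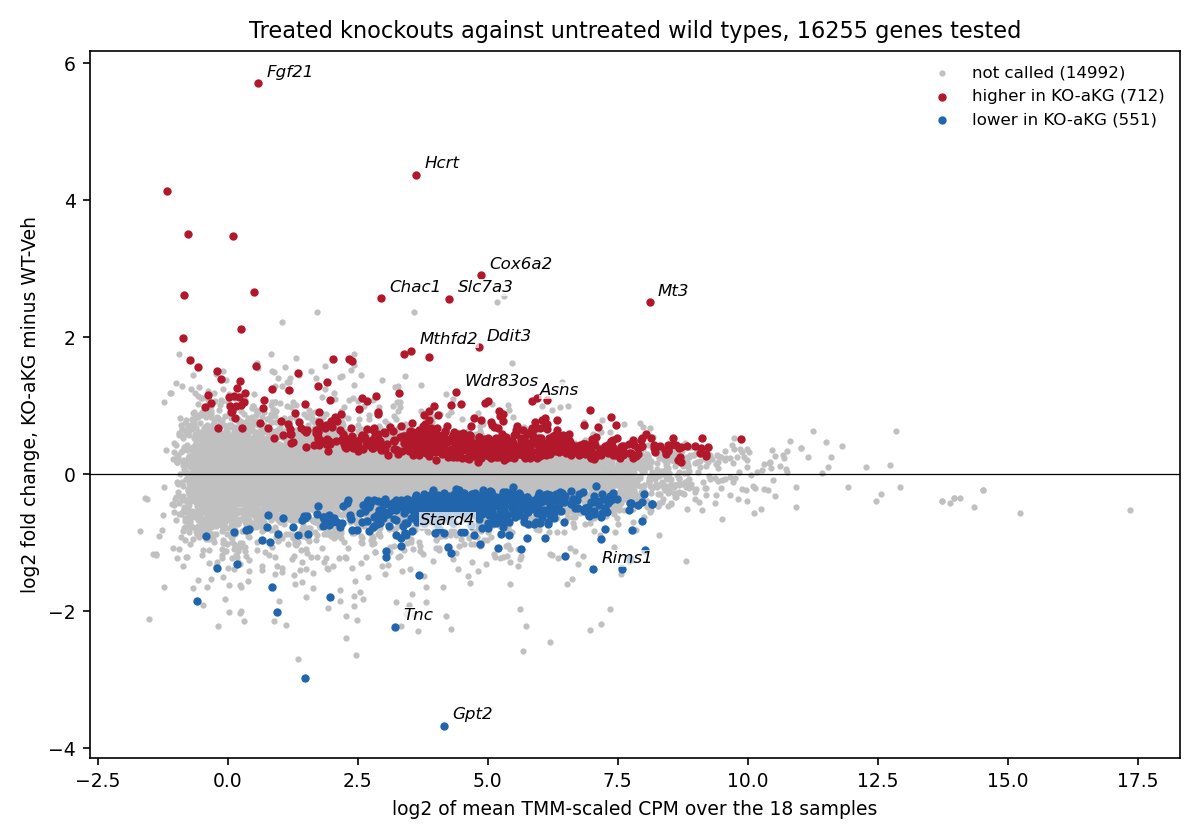
Log2 fold change of KO-aKG minus WT-Veh (vertical) against the log2 of the mean TMM-scaled CPM over the 18 samples (horizontal) for each of the 16255 genes tested. Red points are the 712 genes called higher, blue points the 551 called lower; Gpt2 is the lowest called point.

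Gpt2 itself had the largest fall. The lowest, median and highest values were 22.04, 29.8 and 39.0 CPM in the WT-Veh libraries and 1.12, 2.52 and 3.18 CPM in the KO-aKG libraries. Every KO-aKG library lay below every WT-Veh library, with 12 to 38 Gpt2 counts against 250 to 465. The log2 fold change was -3.67 (SE 0.20, adjusted p = 1.42e-15). KO-Veh libraries were at 0.88 to 3.30 CPM, and the treated knockouts differed from them by 0.23 on the log2 scale, with a 95% interval of -0.18 to 0.63. Residual Gpt2 counts in knockouts cannot be assigned to a part of the transcript from a table of counts per gene.

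Many genes of the integrated stress response rose. Of 41 ATF4 targets, all tested, 26 were higher and 1, Gpt2, was lower, or 65.9% called against 7.77% of all genes, and the median log2 fold change of the list was 0.74. Of 21 regulators of the response, 6 were higher and none lower (28.6% called), with a median of 0.04. The 2 lists share members, so their counts are not separate. Without the samples high in cerebellum markers, 23 ATF4 targets were higher and 1 lower, and with the long-against-short measure as a covariate 21 were higher and 1 lower.

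Ddit3 encodes CHOP, a transcription factor of the late stress response. It ran from 9.22 to 17.3 CPM in WT-Veh (median 12.9) and from 35.6 to 64.5 CPM in KO-aKG (median 47.9). The groups did not overlap, and the log2 fold change was 1.85 (SE 0.16, adjusted p = 1.61e-09). Atf4 encodes the factor that drives the programme. Its values were 46.2, 61.4 and 87.5 CPM in WT-Veh and 89.4, 103 and 127 CPM in KO-aKG (lowest, median, highest), again without overlap, and it rose by 0.79 (SE 0.11, adjusted p = 2.49e-05). Atf5, a related factor of mitochondrial stress, rose by 1.08 (SE 0.13, adjusted p = 7.51e-07), from a median of 22.4 CPM to one of 46.3 CPM. Trib3, a pseudokinase that restrains ATF4 output, was low in both groups, with a median of 0.29 CPM in WT-Veh libraries against 1.10 CPM with KO-aKG, and the groups overlapped (log2 fold change 1.57, adjusted p = 0.012, and 0.67 on log2 of the deposited CPM + 1, also called).

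Chac1 encodes an enzyme that degrades glutathione and is among the most sensitive ATF4 targets. It ran from 1.26 to 4.58 CPM in WT-Veh and from 7.78 to 22.4 CPM in KO-aKG. No value overlapped, and the log2 fold change was 2.57 (SE 0.29, adjusted p = 2.11e-07). Sesn2, a stress-induced brake on mTORC1, rose by 1.29 (SE 0.23, adjusted p = 0.000425), from a median of 1.96 CPM to one of 4.45 CPM. Gdf15, a stress hormone, rose by 1.39 (SE 0.31, adjusted p = 0.0047), with every WT-Veh value below the KO-aKG median of 1.15 CPM and the groups overlapping. Its difference was 0.66 on log2 of the deposited CPM + 1, also called. Fgf21, a second hormone of this response, was at 0 to 0.228 CPM in WT-Veh and 0.303 to 11.7 CPM in KO-aKG, and it was called (adjusted p = 4.43e-07). No fold is given for Fgf21, since its size rests on the prior count added to WT-Veh libraries at 0.

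**Figure D2:**
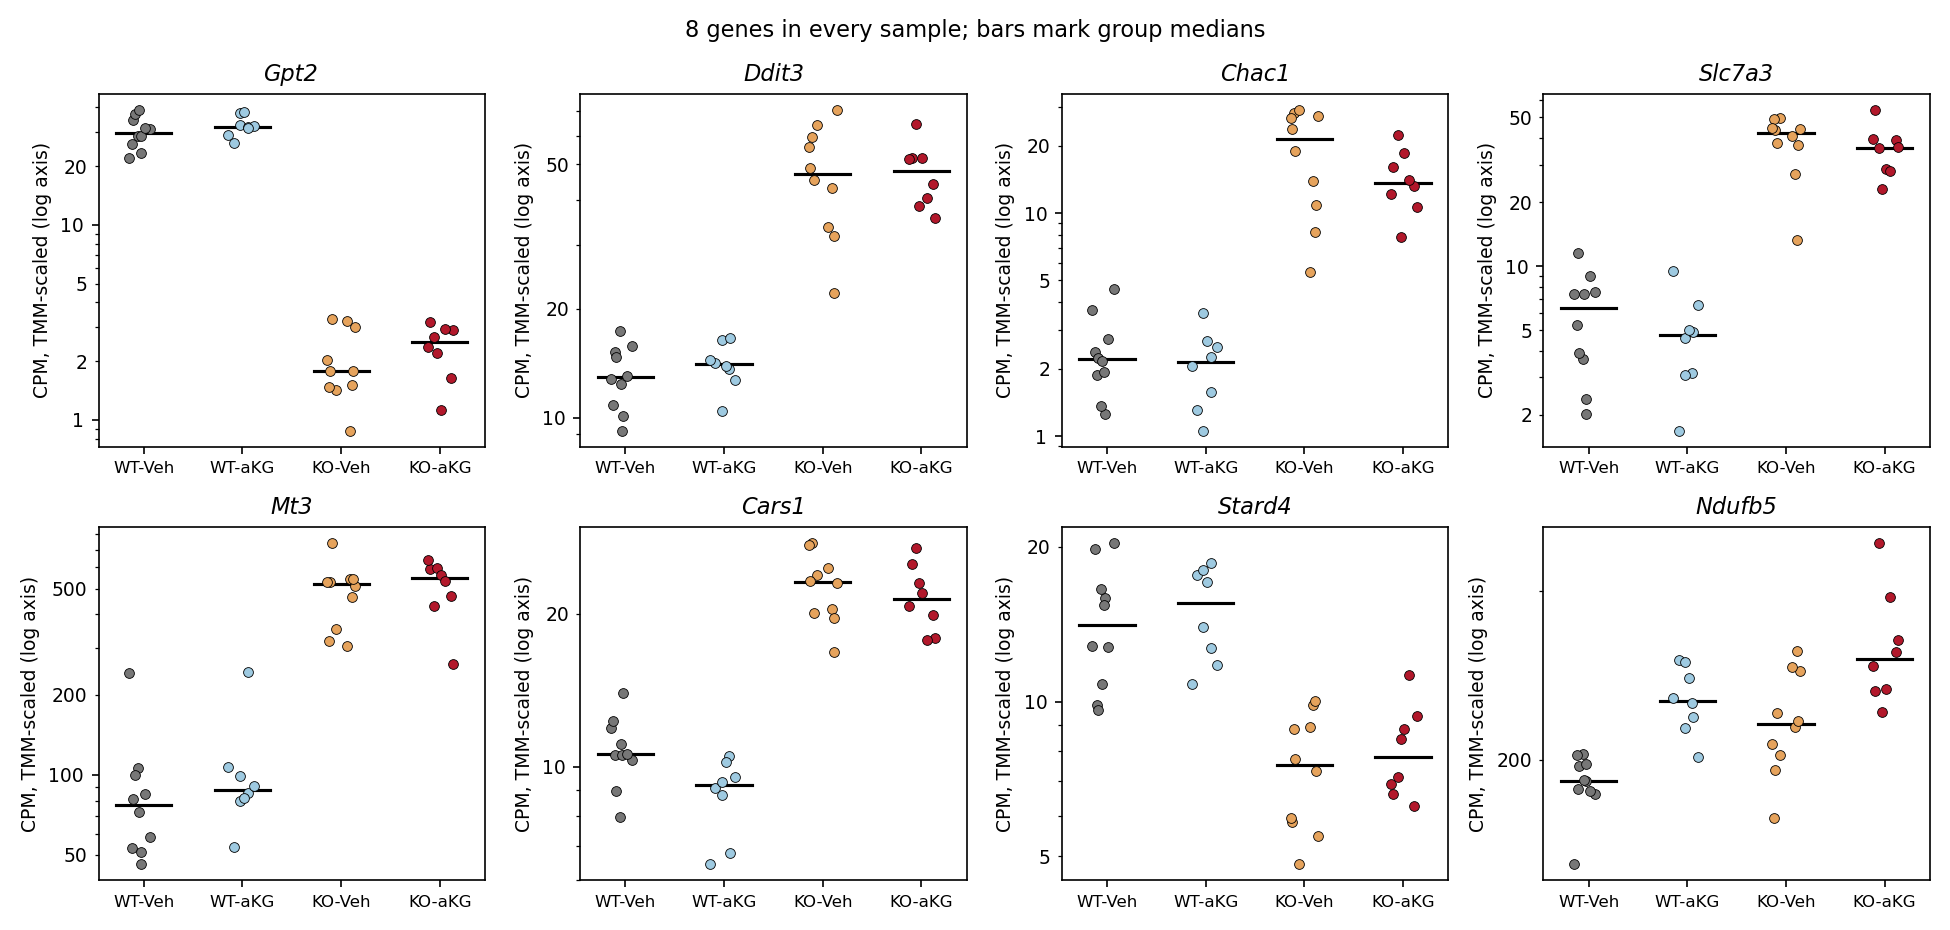
TMM-scaled CPM on a log axis for 8 genes in all 36 libraries, by group, with bars at the group medians. Gpt2, Ddit3, Chac1, Slc7a3, Mt3, Cars1 and Ndufb5 show no overlap between KO-aKG and WT-Veh, and Stard4 overlaps.

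Promoter windows of ATF4 targets are shown because these genes moved together and the element bound by ATF4 with C/EBP proteins is known. The windows come from RefSeq on GRCm38.p6 and run from 250 bases before to 50 after a gene's start. The 9 letters TGATGNAAT, on either strand, were in 0.965% of all 32851 windows in the table and in 3 of 33 ATF4 targets with a window, Fgf21, Nupr1 and Pycr1. The first 8 letters, TGATGNAA, a form searched after the sequences had been seen, were in 3.97% of all windows and in 2.22% of the windows of tested genes. Counted by gene, since a gene can have several windows, 4.51% of all genes and 2.71% of tested genes held them in a window. They were in the windows of 11 of 33 ATF4 targets (33.3%) and of 5 of 13 cytosolic aminoacyl-tRNA synthetase genes (38.5%: Aars1, Gars1, Iars1, Tars1 and Yars1). Of the ATF4 targets called higher in KO-aKG, 6 of 20 with a window held them (30%), no larger a share than in the whole list. Among all genes with a window, 6.49% of the higher genes (32 genes) and 2.11% of the lower genes (9 genes) held the 8 letters. Ddit3 has a window that holds neither form. The 8 letters of the match are in capitals for 3 of the genes described here, chosen after their values and sequences were seen. Chac1 lies at chr2:119350992-119351291 on the plus strand, with the match starting at position -193 from the gene's start. Asns lies at chr6:7693160-7693459 on the minus strand with the match at -23, and Fgf21 at chr7:45615441-45615740 on the minus strand with the match at -139. In Chac1 and Fgf21 the printed strand carries the reverse complement of the letters.
Chac1: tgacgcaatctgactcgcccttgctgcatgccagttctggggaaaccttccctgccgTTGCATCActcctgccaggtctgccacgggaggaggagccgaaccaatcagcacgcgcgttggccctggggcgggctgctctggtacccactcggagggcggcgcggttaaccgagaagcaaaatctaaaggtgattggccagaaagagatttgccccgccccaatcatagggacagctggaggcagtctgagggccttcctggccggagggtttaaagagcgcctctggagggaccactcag
Asns: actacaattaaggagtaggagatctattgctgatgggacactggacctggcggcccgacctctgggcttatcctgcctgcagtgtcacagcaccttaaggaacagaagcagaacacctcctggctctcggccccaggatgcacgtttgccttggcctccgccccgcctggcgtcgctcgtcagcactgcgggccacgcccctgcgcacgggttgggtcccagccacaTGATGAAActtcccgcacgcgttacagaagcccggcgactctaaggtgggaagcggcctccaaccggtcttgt
Fgf21: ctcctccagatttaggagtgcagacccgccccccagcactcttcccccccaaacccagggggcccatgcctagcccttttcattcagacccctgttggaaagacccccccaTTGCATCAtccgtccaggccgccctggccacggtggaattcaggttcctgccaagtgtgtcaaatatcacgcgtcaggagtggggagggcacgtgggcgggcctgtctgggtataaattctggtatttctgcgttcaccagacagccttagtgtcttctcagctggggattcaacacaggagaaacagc

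Enzymes that charge tRNA were tested in the cytosolic and the mitochondrial set. Of 20 cytosolic aminoacyl-tRNA synthetase genes, 10 were higher and none lower (50% called, beside 7.77% of all genes), with a median log2 fold change of 0.36. Of 17 mitochondrial ones, none was called by edgeR or DESeq2, 1 had an unadjusted p under 0.05 in edgeR, and the median was 0.03. The mean log2 CPM of the 20 cytosolic genes was 4.56 to 5.004 in WT-Veh and 4.93 to 5.42 in KO-aKG, and 1 WT-Veh library lay within the KO-aKG range. Cars1, for cysteine, ran from 7.98 to 14.0 CPM in WT-Veh and from 17.7 to 26.9 CPM in KO-aKG, and it rose by 1.00 (SE 0.11, adjusted p = 1.29e-07). Sars1, for serine, rose by 0.83 (SE 0.10), from a median of 49.0 CPM to one of 90.4 CPM, without overlap. Gars1, for glycine, rose by 0.76, and Mars1, for methionine, by 0.74. The other called members were Aars1, Iars1, Nars1, Tars1, Vars1 and Yars1. Among those not called, Kars1 (-0.05), Qars1 (-0.10) and Rars1 (0.03) had log2 fold changes near 0.

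Amino acid transporters formed a split list. Of 24 tested, 5 were higher and none lower (20.8% called, beside 7.77% of all genes), and the median was -0.03. Slc7a3, a carrier of cationic amino acids, had lowest, median and highest values of 2.03, 6.34 and 11.5 CPM in WT-Veh and 23.0, 35.9 and 54.4 CPM in KO-aKG. Its groups did not overlap, and it rose by 2.56 (SE 0.28, adjusted p = 1.83e-07). Slc7a1, a second cationic carrier, rose by 1.02 and Slc7a5, the light chain of the large neutral carrier, by 0.74, both without overlap. Slc3a2, the heavy chain that pairs with Slc7a5, rose by 0.58 (SE 0.12, adjusted p = 0.00221), with overlap.

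Enzymes that make serine, one-carbon units, asparagine and proline rose in part. Of 23 serine and one-carbon genes, 4 were higher and 1 lower (21.7% called). Of 10 asparagine and proline genes, 3 were higher and none lower (30% called), beside 7.77% of all genes. Mthfd2, a mitochondrial folate enzyme, ran from 3.31 to 12.4 CPM in WT-Veh (median 4.59) and from 12.2 to 33.3 CPM in KO-aKG (median 17.99). The groups touched at 1 WT-Veh library, and the log2 fold change was 1.81 (SE 0.22, adjusted p = 1.34e-06). Asns, which makes asparagine, rose by 1.07 (SE 0.17), from a median of 38.5 CPM to one of 80.9 CPM. Psph, the last enzyme of serine synthesis, rose by 1.12 (SE 0.18), and Shmt2, which splits serine in mitochondria, by 0.68 (SE 0.11). Aldh18a1, which starts proline synthesis, rose by 0.71, and Pycr1, which completes it, by 0.89 (adjusted p = 0.0431). Bcat1, a branched-chain transaminase that also uses α-ketoglutarate, rose by 1.04 (SE 0.20, adjusted p = 0.000781), and Pck2, a mitochondrial carboxykinase, by 0.86 (SE 0.14, adjusted p = 9.81e-05). Psat1, the middle enzyme of serine synthesis, rose by 0.53 (adjusted p = 0.0347), a call that was lost in 5 of 18 fits that left out 1 sample, and the call of Pycr1 was lost in 14. The calls of Psph (0.62), Psat1 (0.12) and Pycr1 (0.94) were lost with the long-against-short covariate, and without the samples high in cerebellum markers those of Psat1 (0.38) and Pycr1 (0.62).

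Several of the largest rises lay outside amino acid supply. Mt3, the metallothionein of neurons and astrocytes, ran from 46.2 to 241 CPM in WT-Veh and from 261 to 642 CPM in KO-aKG. Its groups did not overlap, and it rose by 2.51 (SE 0.27, adjusted p = 1.29e-07). Cox6a2, the muscle-type subunit of cytochrome oxidase that some interneurons express, ran from 0.668 to 15.1 CPM in WT-Veh and from 27.97 to 94.7 CPM in KO-aKG, a log2 fold change of 2.91 (SE 0.46, adjusted p = 0.000102). With the long-against-short covariate Cox6a2 was still called, at 1.90. Cyb5r1, a reductase of the cytochrome b5 family, rose by 1.71 (SE 0.20, adjusted p = 5.01e-07), with KO-aKG values of 10.3 to 51.1 CPM above WT-Veh values of 4.34 to 9.06 CPM. Trim66 rose by 1.69 and Dleu7 by 1.65, both from low levels and without overlap, and the call of Dleu7 was lost with the long-against-short covariate (0.88). Hcrt, the hypothalamic neuropeptide orexin, had a fitted rise of 4.37 (SE 1.17, adjusted p = 0.0171), a call lost without the samples high in cerebellum markers (4.03). One KO-aKG library held 188 CPM of Hcrt against a group median of 1.02 CPM, and without that library, KO-aKG replicate 5, the fitted value was 1.32 (adjusted p = 0.465). It was 6.80 without WT-Veh replicate 5, which held the highest WT-Veh value, and -0.20 once 5 brain-region and cell-type scores were covariates. Cd83, an immune and neuronal membrane protein, rose by 1.19 (adjusted p = 0.0385), a call kept in 8 of the 18 fits that left out 1 sample and lost without the samples high in cerebellum markers (1.19) and with the 5 scores (0.44).

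Genes around Gpt2 on chromosome 8 were counted separately. Gpt2 lies at chr8:85492576-85527560 on the plus strand in GENCODE M21 (GRCm38). Of 153 other tested genes within 10 Mb, 10 were higher and 6 lower (10.46% called), with a median of -0.04. Of 652 tested genes on the rest of the chromosome, 36 were higher and 31 lower (10.28%), beside 7.77% of all genes. Calls within the 10 Mb lay unevenly. Orc6, Wdr83os, Prdx2, Gadd45gip1 and Gm26664, all higher, and Tnpo2 and Cacna1a, both lower, lay 0.184 to 0.852 Mb from Gpt2. Zswim4, N4bp1 and Dcaf15, all lower, lay at 1.26, 1.28 and 1.39 Mb, and the remaining called genes at 2.03 to 9.31 Mb. No share was taken at a shorter distance than 10 Mb. Gadd45gip1, which encodes a mitochondrial ribosome protein and lies 0.657 Mb from Gpt2, ran from 24.3 to 30.7 CPM in WT-Veh and from 43.1 to 62.5 CPM in KO-aKG, with a log2 fold change of 0.88 (SE 0.07, adjusted p = 1.99e-10). It is named for its small p, after its values were seen. Wdr83os, an endoplasmic reticulum membrane protein gene at 0.410 Mb, rose by 1.20 (SE 0.12, adjusted p = 9.43e-09), from 9.13 to 18.9 CPM in WT-Veh to 22.6 to 34.1 CPM in KO-aKG. Its neighbour Wdr83 at 0.411 Mb had a log2 fold change of -0.11 (adjusted p = 0.608), and reads shared by overlapping genes cannot be told apart here. Mt3 lies 8.63 Mb from Gpt2. Of the falls described below, that of Cacna1a lies 0.852 Mb from Gpt2, that of Plvap 14.0 Mb and that of Ocel1 14.1 Mb. Ocel1 also overlaps Nr2f6 on the opposite strand, which was called lower too (-0.59), and their reads cannot be told apart here either. Whether strain-derived sequence around the targeted locus contributes to these differences was not tested.

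Sterol genes were tested as synthesis and as uptake with its regulation. Of 22 genes of sterol synthesis none was called by edgeR (12 at an unadjusted p under 0.05), while DESeq2 called 5 lower, and 20 of the 22 had a negative log2 fold change, with a median of -0.35. Without the samples high in cerebellum markers 4 were lower, and with the long-against-short covariate the median was 0.03. Of 12 genes of sterol uptake and SREBP2 regulation, 4 were lower and none higher (33.3% called, beside 7.77% of all genes). The median of these 12 was -0.31, and 2 were lower without the samples high in cerebellum markers. Stard4 ran from 9.65 to 20.3 CPM in WT-Veh (median 14.1) and from 6.25 to 11.3 CPM in KO-aKG (median 7.80). The groups overlapped, and the log2 fold change was -0.83 (SE 0.16, adjusted p = 0.00155). Insig1, which holds SREBP2 in the endoplasmic reticulum, fell by 0.63 (SE 0.17, adjusted p = 0.019), and Scap, its escort partner, fell by 0.25. Mylip, which marks the LDL receptor for degradation, fell by 0.60, and Fasn, the fatty acid synthase, fell by 0.50 (SE 0.10, adjusted p = 0.00166). The calls of Stard4 (-0.45), Insig1 (-0.18), Scap (-0.04), Mylip (-0.04) and Fasn (-0.33) were all lost with the long-against-short covariate. Those of Insig1 (-0.54), Scap (-0.16) and Mylip (-0.37) were also lost without the samples high in cerebellum markers, while Stard4 (-0.79) and Fasn (-0.53) were called. On the deposited CPM scale neither the 12 uptake genes nor Mylip or Fasn were called.

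**Figure D3:**
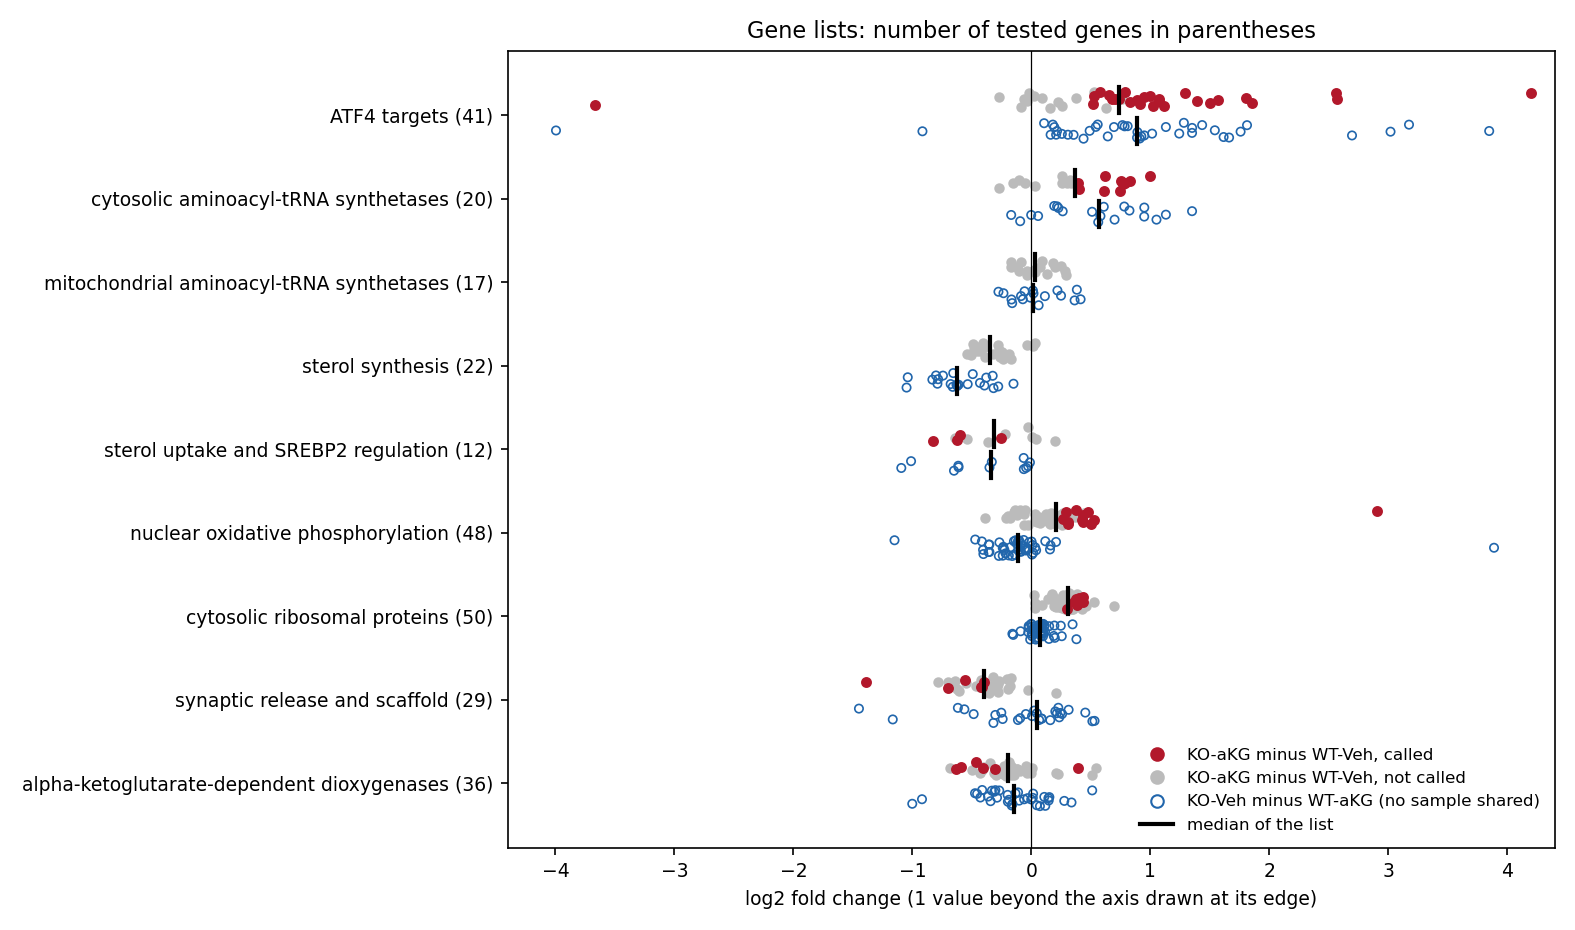
Log2 fold changes of the tested genes in 9 lists. Filled points are KO-aKG minus WT-Veh, red where called; open points are KO-Veh minus WT-aKG, which shares no library with it; bars are list medians, such as 0.74 and 0.89 for ATF4 targets.

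Nuclear genes for mitochondrial respiration were called in 1 direction. Of 48 genes for oxidative phosphorylation, 12 were higher and none lower (25% called), with a median of 0.21. The list median was 0.13 in KO-Veh minus WT-Veh, 0.27 in WT-aKG minus WT-Veh and -0.03 in KO-aKG minus WT-aKG. These comparisons share libraries with the main one, so their values are only set beside it. Ndufb5, a complex I subunit, ran from 156 to 203 CPM in WT-Veh and from 224 to 336 CPM in KO-aKG, and it rose by 0.48 (SE 0.08, adjusted p = 0.000165). Ndufc1 rose by 0.44 and Ndufv2 by 0.50, again without overlap. Hspe1, the co-chaperonin of the mitochondrial matrix, ran from 90.1 to 131 CPM in WT-Veh and from 142 to 224 CPM in KO-aKG, and it rose by 0.69 (SE 0.12, adjusted p = 0.000233). Grpel1, a partner of the matrix Hsp70, rose by 0.48. The calls of Ndufv2 (0.39), Hspe1 (0.45) and Grpel1 (0.33) were lost with the long-against-short covariate. Among all genes tested, 4.38% were higher and 3.39% lower. Of 82 tested genes whose symbols begin with Mrpl or Mrps and a number, 34 were higher and none lower, with a median of 0.25. Most such symbols stand for proteins of the mitochondrial ribosome, but the symbol alone does not show it. The 82 include the pseudogenes Mrpl23-ps1, Mrps36-ps1 and Mrpl48-ps, all called higher, and Mrps36-ps2, not called. Their median was 0.16 in KO-Veh minus WT-Veh, 0.18 in WT-aKG minus WT-Veh and 0.08 in KO-aKG minus WT-aKG. The list of 82 was drawn up after the called genes had been seen, and Mrpl21 led it with 0.68 (SE 0.08, adjusted p = 4.43e-07).

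The median of the cytosolic ribosomal protein genes changed sign with the length covariate. Of 50 genes, 8 were higher and none lower (16% called), all 50 had a positive log2 fold change, and the median was 0.31. The list median was 0.28 in KO-Veh minus WT-Veh, 0.22 in WT-aKG minus WT-Veh and 0.09 in KO-aKG minus WT-aKG. Rpl27 ran from 415 to 618 CPM in WT-Veh and from 612 to 754 CPM in KO-aKG, and it rose by 0.40 (SE 0.10, adjusted p = 0.00953). Without the samples high in cerebellum markers, 3 were higher. With the long-against-short covariate none was higher, 2 were lower and the median was -0.23, and Rpl27 had a log2 fold change of 0.00. These genes are short, with a median exonic length of 1.92 kb, and have many near-identical pseudogenes, which makes single values uncertain. With the same covariate, 6 genes of oxidative phosphorylation were higher and none lower.

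The largest falls after that of Gpt2, among called genes averaging 5 CPM or more, included Tnc, Ocel1 and Rims1. Tnc, an extracellular matrix glycoprotein, had lowest, median and highest values of 3.55, 6.61 and 56.8 CPM in WT-Veh and 1.54, 2.89 and 4.85 CPM in KO-aKG. The groups overlapped, and the log2 fold change was -2.22 (SE 0.51, adjusted p = 0.00619). WT-Veh replicates 1, 6 and 9, the 3 high in cerebellum markers, held 56.8, 25.6 and 18.4 CPM of Tnc, above the other WT-Veh libraries, which held at most 8.69 CPM. Tnc was called at -1.09 without the samples high in cerebellum markers, and its call was lost with the long-against-short covariate (-0.24). Ocel1 fell by 1.47 (SE 0.34, adjusted p = 0.00668), from a median of 15.8 CPM to one of 5.98 CPM. Plvap, a protein of endothelial diaphragms, fell by 1.12 (SE 0.24, adjusted p = 0.00315), from 9.47 to 3.95 CPM in the medians, a call lost with that covariate (-0.71). The falls of Adcy1 (-1.24), Cacna1a (-1.20) and Sphkap (-1.09), neuronal genes for an adenylyl cyclase, a calcium channel and a kinase anchor, were called with adjusted p of 0.0318 to 0.0486. Their calls held in 7, 8 and 10 of the 18 fits that left out 1 sample, in that order. The same 3 WT-Veh libraries held the highest WT-Veh values of each, such as 306, 182 and 241 CPM of Cacna1a against 42.9 to 81.4 CPM in the other 7. With the 5 scores as covariates the calls of Adcy1 (-0.24), Cacna1a (-0.33) and Sphkap (-0.30) were lost, as they were with the long-against-short covariate (-0.85, -0.14 and -0.18). Cacna1a (-0.54) and Sphkap (-0.61) were called without the samples high in cerebellum markers, and Adcy1 (-0.91) was not. The part of regional makeup in these falls was not tested. Camk4, a calcium-dependent kinase, fell by 1.15 (by 1.02, adjusted p = 0.0521, without KO-aKG replicate 8), and Cemip, a hyaluronan-degrading protein, fell by 1.21. Both calls were lost with the long-against-short covariate (-1.06 and -0.71) and with the 5 scores (-0.68 and -0.52), and that of Camk4 also without the samples high in cerebellum markers (-0.84). On the deposited CPM scale limma called Ocel1, Plvap and Rims1 but not Tnc, Adcy1, Cacna1a, Sphkap, Camk4 or Cemip.

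Synaptic genes that passed the test were all lower. Of 29 genes for vesicle release and scaffolds, 6 were lower and none higher (20.7% called), 28 had a negative log2 fold change, and the median was -0.40. Rims1, a scaffold of the active zone, had lowest, median and highest values of 68.7, 139 and 345 CPM in WT-Veh and 34.4, 61.2 and 115 CPM in KO-aKG. The groups overlapped, and it fell by 1.39 (SE 0.34, adjusted p = 0.0101; -2.41 with the long-against-short covariate, also called). Its relative Rims2 ran from 66.4 to 111 CPM in WT-Veh and from 57.4 to 86.9 CPM in KO-aKG, with overlap, and it fell by 0.41 (SE 0.10, adjusted p = 0.0117). Of 31 glutamate and GABA-A receptor genes, none was called by edgeR (8 at an unadjusted p under 0.05) and 2 were lower by DESeq2, with a median of -0.32. Synaptic genes were also long, with a median exonic length of 8.80 kb against 4.15 kb for all genes. With the long-against-short covariate 9 of the 29 were lower, and without the samples high in cerebellum markers 8 were. On the deposited CPM scale only 1 was lower.

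Dioxygenases that use α-ketoglutarate included 1 higher and 5 lower genes among 36 tested (16.7% called), with a median of -0.19. Tet1 fell by 0.63 (SE 0.15, adjusted p = 0.00927) and Tet3 by 0.59 (SE 0.13, adjusted p = 0.0033), both enzymes that oxidise methylcytosine. Egln1, the oxygen sensor of hypoxia-inducible factor, fell by 0.47, and Phf2, a histone demethylase, by 0.40. Their groups overlapped. The calls of Tet1 (-0.18), Tet3 (-0.52) and Phf2 (-0.36) were lost with the long-against-short covariate and Egln1 was called (-0.68), and without the samples high in cerebellum markers Phf2 (-0.37) lost its call and Tet1 was called at -0.40. With the 5 scores Tet3 was called at -0.35. These genes are long as well, with a list median of 6.59 kb, and with the long-against-short covariate 1 was higher, 2 were lower and the median was 0.10. On the deposited CPM scale 1 was higher and none lower.

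Lists of glycolysis, glutathione and other stress responses held 1 to 3 calls each. The share called was 12.5% for glycolysis, 11.5% each for NRF2 and glutathione and for glucocorticoid-induced genes, 18.8% for interferon-stimulated genes and 8.70% for immediate early genes, beside 7.77% of all genes. It was 4.17% for endoplasmic reticulum chaperones and unfolded protein response genes and 5.13% for pyruvate and tricarboxylic acid cycle genes. Of 24 glycolytic genes, 3 were lower: Aldoa (-0.43), Pkm (-0.41) and Eno1 (-0.37). With the long-against-short covariate none of the 24 was called, and Eno1 lost its call in 11 of the 18 fits that left out 1 sample. Gsr, glutathione reductase, fell by 0.77 (SE 0.16, adjusted p = 0.00204), and Gpx1, a glutathione peroxidase, rose by 0.42 (adjusted p = 0.0404), a call lost in 12 of those fits. The only other called member of the NRF2 and glutathione list was Chac1, already counted among the ATF4 targets, so its 11.5% is not separate from them. Of 26 glucocorticoid-induced genes, 3 were higher: Tsc22d3 (0.73), Ctla2a (0.70) and Plin4 (2.12), the last with WT-Veh values of at most 1.04 CPM. The call of Tsc22d3 was lost without KO-aKG replicate 8 (0.58, adjusted p = 0.0696) and that of Plin4 without KO-aKG replicate 6 (1.72, adjusted p = 0.0718). Of 16 interferon-stimulated genes, 3 were higher: Ifit3 (1.68), B2m (0.33) and Bst2 (0.42), and KO-aKG replicate 8 held 34.9 CPM of Ifit3 against a group median of 2.93 CPM. Without that library Ifit3 had a log2 fold change of 0.28 (adjusted p = 0.712), and B2m and Bst2 lost their calls in 8 and 9 of the 18 fits that left out 1 sample. Of 23 immediate early genes, Jun and Jund were lower, with log2 fold changes of -0.58 and -0.54, and Jund lost its call without KO-aKG replicate 8 (adjusted p = 0.0536). Of 24 endoplasmic reticulum chaperones and unfolded protein response genes, 1, Herpud1, was higher (0.65), and of 39 pyruvate and tricarboxylic acid cycle genes, 2 were higher, Sdhb (0.27) and Idh3b (0.28), the latter losing its call in 7 of the 18 fits. The calls of Gsr (-0.40), Gpx1 (0.00), Tsc22d3 (0.82), Ctla2a (0.54), Plin4 (1.83), Ifit3 (1.79), B2m (0.41), Bst2 (0.42), Jun (-0.04), Jund (-0.44) and Sdhb (0.16) were lost with the long-against-short covariate, and Idh3b (0.48) and Herpud1 (0.95) were called. Without the samples high in cerebellum markers the calls of Pkm (-0.36), Gpx1 (0.42), Plin4 (1.99) and B2m (0.35) were lost, and Jun was called at -0.34.

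Treated and untreated knockouts were compared directly. They share no library with each other, but KO-aKG serves in both this comparison and the main one, and WT-Veh serves in both genotype comparisons, so the values are only set side by side. No gene was called between KO-aKG and KO-Veh in the reported edgeR fit (0% of 16255), with 1973 genes at an unadjusted p under 0.05 and a smallest adjusted p of 0.214. DESeq2 called 20 genes, and edgeR with the long-against-short covariate called 101, 58 higher and 43 lower. Some region and cell-type lists had medians away from 0 in KO-aKG minus KO-Veh. They were 3.33 for midbrain and hindbrain, 0.87 for myelinating oligodendrocytes and -0.70 for cerebral cortex, while others were near 0, such as 0.03 for microglia. The part of tissue makeup in this comparison was not tested. KO-Veh against WT-Veh gave 701 calls (4.31%). The log2 difference of KO-aKG from KO-Veh was -0.00 for Ddit3 (95% interval -0.33 to 0.32), -0.41 for Chac1 (-0.96 to 0.13), -0.12 for Slc7a3 (-0.67 to 0.43) and 0.11 for Stard4 (-0.22 to 0.44). KO-Veh minus WT-Veh gave 1.85 for Ddit3, 2.98 for Chac1, 2.68 for Slc7a3 and -0.94 for Stard4. The ATF4 list had a median of 0.79 in KO-Veh minus WT-Veh beside 0.74 in KO-aKG minus WT-Veh, and the sterol synthesis list -0.53 beside -0.35. Synaptic genes had -0.04 beside -0.40, and glutamate and GABA-A receptor genes -0.04 beside -0.32. In KO-aKG minus KO-Veh the medians were -0.37 for synaptic genes, -0.32 for receptor genes, -0.07 for ATF4 targets and 0.21 for sterol synthesis. The intervals given for single genes allow treatment differences in either direction, and a gene that missed the threshold was not shown to be equal.

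KO-Veh against WT-aKG is the only other comparison of knockouts with wild types across treatments, and it shares no library with KO-aKG against WT-Veh. Fitted on their own groups alone, the comparisons called 344 genes (2.12%) and 898 genes (5.52%). There were 98 genes called in both in the same direction, 75 higher and 23 lower in knockouts, and none in opposite directions. They were 28.5% of the 344 and 10.9% of the 898. Of the 898 genes, 78.3% had the same sign in KO-Veh minus WT-aKG, against 58.6% of all genes.

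The median of each list in KO-Veh minus WT-aKG can be set beside its median in KO-aKG minus WT-Veh, both from the fit of all 4 groups. The ATF4 targets had a median of 0.89 in KO-Veh minus WT-aKG beside 0.74 in KO-aKG minus WT-Veh, the cytosolic aminoacyl-tRNA synthetases 0.57 beside 0.36, and sterol synthesis -0.63 beside -0.35. Oxidative phosphorylation had -0.11 beside 0.21, and the 82 genes with Mrpl or Mrps symbols 0.02 beside 0.25. Cytosolic ribosomal proteins had 0.07 beside 0.31, and synaptic genes 0.05 beside -0.40. Among single genes, Ddit3 had 1.76, Chac1 3.17, Slc7a3 3.02, Mt3 2.203, Cox6a2 3.89 and Stard4 -1.01 in KO-Veh minus WT-aKG. Rims1 had -0.62, Rims2 0.01, Ndufb5 -0.07, Hspe1 -0.17 and Rpl27 0.05. The difference between these values was not tested as such.

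Exonic length separated the directions of the calls. The median length was 2.203 kb for the higher genes, 6.86 kb for the lower genes and 4.15 kb for all genes with a length. In the shortest tercile of genes 425 were higher and 35 lower, and in the longest tercile 72 were higher and 347 lower. With the long-against-short measure as a covariate, chosen after this was seen, 1002 genes were called, but only 264 of the 1263 were among them (20.9%). The measure differs between the groups, so it and the group difference cannot be told apart for a gene that follows length.

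**Figure D4:**
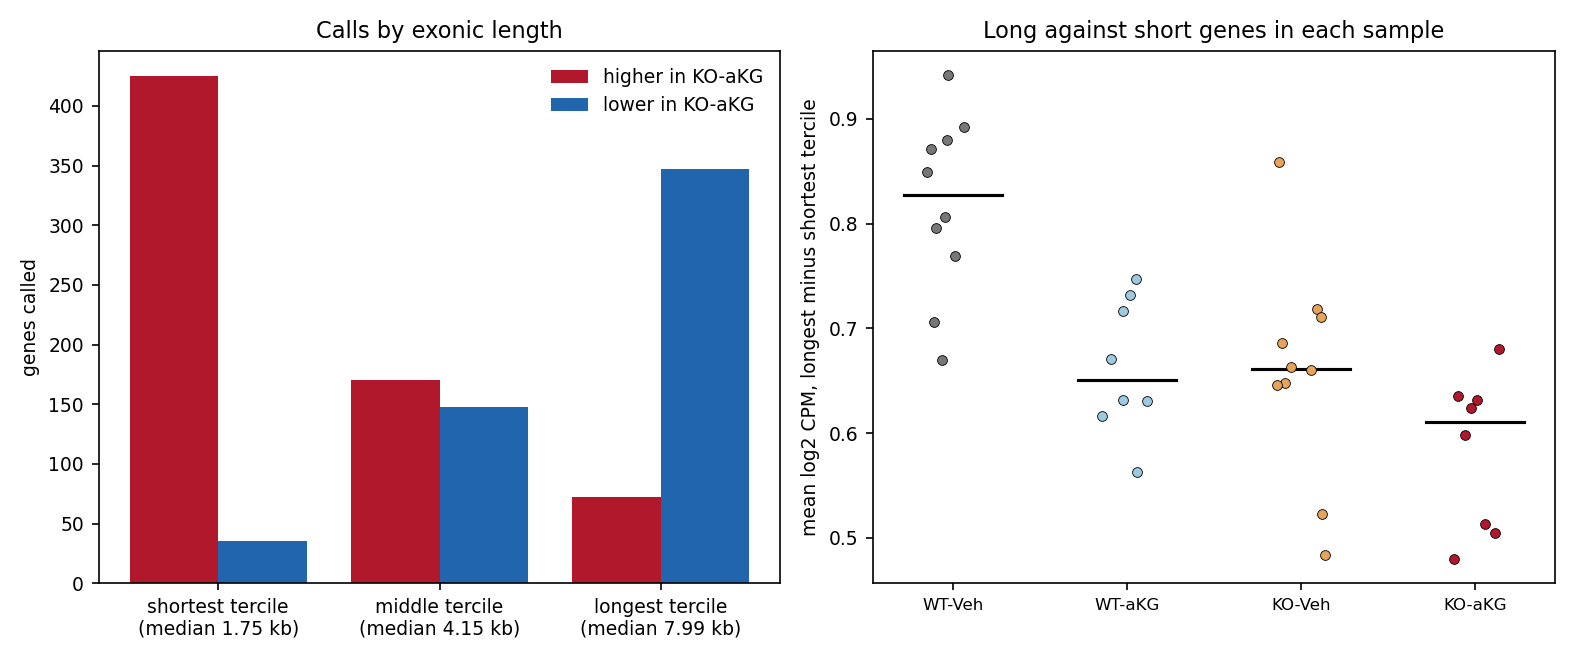
Left, genes called higher (red) or lower (blue) in KO-aKG against WT-Veh in each tercile of exonic length, such as 425 and 35 in the shortest tercile. Right, mean log2 CPM of the longest minus the shortest tercile in every library by group, with bars at the medians, where WT-Veh (0.67 to 0.94) lies above most other libraries.

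Genes called in every fit were few. Over the 30 fits (the one reported and 29 alternatives, 18 of which left out 1 sample), 126 genes were called each time, 113 higher and 13 lower. Without the length covariate the number was 301, 283 higher and 18 lower. The 126, out of all 16255 genes tested, included 17 of 41 ATF4 targets. Among these 17 were Ddit3, Chac1, Slc7a3, Asns and Mthfd2, which rose, and Gpt2 itself, which fell. Also included were 9 of 20 cytosolic aminoacyl-tRNA synthetases, 5 of 48 oxidative phosphorylation genes and 9 of the 82 genes with Mrpl or Mrps symbols. Of 29 synaptic genes 1 was included (Rims1), and none of the genes in the sterol or cytosolic ribosomal lists used here. Besides Gpt2, Ocel1 and Rims1, the lower genes included Casp9 (-0.71), an initiator of apoptosis, and Smarcc2 (-0.53), a chromatin remodelling subunit, named here after their values were seen.

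Some lists of brain region markers had medians away from 0, and almost none of their genes was called. Over the 23 cerebellum genes the median log2 fold change was -1.60, with 1 called lower, Tiam1 (-0.72, adjusted p = 0.0459). Its score ran from 3.28 to 7.31 in WT-Veh and from 1.90 to 5.82 in KO-aKG. The hypothalamus list had a median of 1.64 over 16 genes, with 1 called, Hcrt, and scores of -0.78 to 4.15 in WT-Veh and 1.12 to 4.85 in KO-aKG. The striatum list had a median of 0.62 over 17 genes, with none called by edgeR or DESeq2, 1 at an unadjusted p under 0.05 in edgeR and 1 called higher by limma on the deposited CPM. Other medians were -0.16 for cerebral cortex, -0.07 for hippocampus, -0.10 for thalamus and 0.42 for midbrain and hindbrain, with none called by edgeR. Without the 9 samples of the series that were high in cerebellum markers, 1510 genes were called. The part of regional makeup in the results was not tested, and in these bulk samples fewer cells of a type and less RNA per cell cannot be told apart. Endothelial markers were split, with Plvap and Cdh5 lower and Ly6c1 higher among 18 (16.7% called). The calls of Tiam1, Cdh5 and Ly6c1 were lost in 12, 5 and 11 of the 18 fits that left out 1 sample, and all 3 were lost with the long-against-short covariate (-0.17, -0.24 and 0.34) and without the samples high in cerebellum markers (-0.59, -0.28 and 0.33). The lists of myelinating oligodendrocytes, astrocytes and microglia held no gene called by edgeR or DESeq2, with 0, 4 and 0 genes at an unadjusted p under 0.05 in edgeR. With the long-against-short covariate, 13 of the 23 oligodendrocyte genes were higher and 1 microglia gene was lower.

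**Figure D5:**
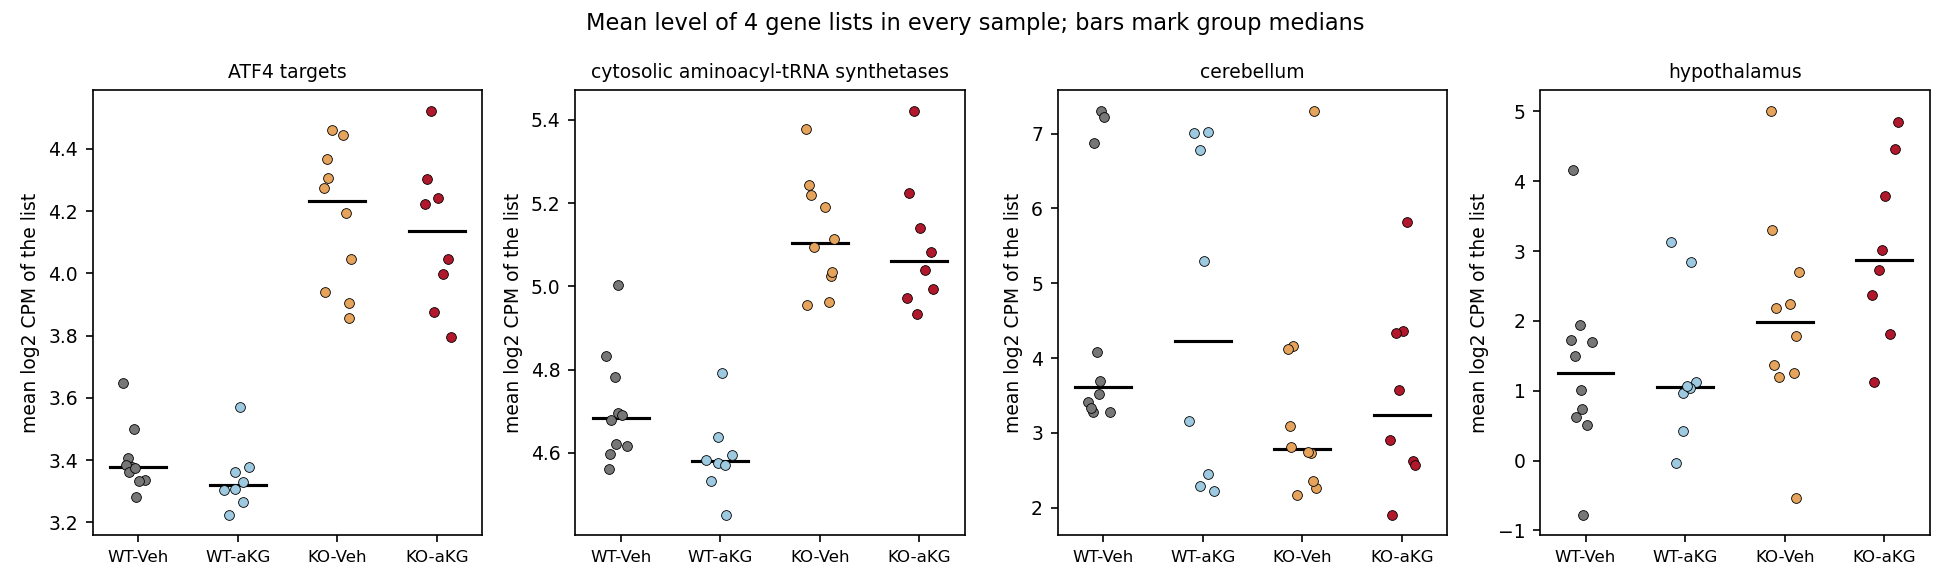
Mean log2 CPM of 4 gene lists in every library by group, with bars at the group medians. KO-aKG (3.79 to 4.52) and WT-Veh (3.28 to 3.65) do not overlap for ATF4 targets, and they overlap for the cytosolic aminoacyl-tRNA synthetases, cerebellum and hypothalamus.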

How the data were processed

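Gene expression was measured in 36 mouse brain libraries made with oligo-dT primers that carry molecular identifiers, per the labels' protocols. Estimated counts for 56184 gene symbols, rounded to whole numbers, were deposited by the authors, with a CPM table of 21637 genes. Per the submitters' processing notes the builds were mm39 and mm10, with no roles given, and the tools deepTools, featureCounts 2.0.6, SAMtools 1.6, HISAT2 2.2.1, FastQC 0.12.1 and Trim Galore 0.6.10. Not given in the sources used here are the build behind the counts, the strand setting and whether identifiers were collapsed, so genes with near-identical copies (Eno1, Rpl7, Rpl27, Hspa1b), overlapping genes and antisense genes such as Cdr1os are uncertain. The deposited CPM values gave back the counts within 0.51 of a count for at least 99.99% of genes in each library.

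Groups came from the labels. Counts were fitted with edgeR 4.0.16 in R 4.3.3 (filterByExpr, 16255 genes, TMM, robust quasi-likelihood, 4 groups, no covariate), with Benjamini-Hochberg adjustment across the 16255 genes and calls under 0.05. Where no tool is named beside an adjusted p, edgeR gave it, and SE and 95% intervals come from the same fit. CPM values are TMM-scaled. No libraries of a group were repeats of each other (chi-square per gene 8.56 or more in 73 pairs of KO-aKG or WT-Veh). Alternatives used DESeq2 1.42.0, limma 3.58.1 on log2(deposited CPM + 1) or + 0.1, other scaling and filters, a replicate block, marker and sex covariates, and leaving out samples. Lengths and positions are from GENCODE M21. The fit was tested on simulated counts.

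Genes were named by a rule: Gpt2, Ddit3 and Stard4, the 12 largest rises and falls by log2 fold change of called genes averaging 5 CPM or more over the 18 samples, and up to 4 called members of each list by smallest p. Other names are members of a listed group or were chosen after their values were seen. The comparison, the lists and the rule were chosen with earlier results of these data known. Some genes that the rule takes are not reported here. No set test was made.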

Additional observations from a re-analysis of the deposited data

Results flagged for a closer look

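In 26 of 192 group values tested, 1 library lay far from the others of its group by the gap rule of Dixon. For independent, normally distributed values the rule would flag about 1 in 20, or 9.6. The CPM values were not log-transformed and the tests share libraries, so 26 cannot be read as an excess over 9.6. No difference of genotype effects between treatments reached an adjusted p under 0.05 among the named genes, the smallest being 0.961.

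WT-Veh replicate 1, high in cerebellum markers, held the highest values of its group for Tnc (56.8 CPM), Atf4 (87.5 CPM), Scap (55.2 CPM), Hspa1b (33.6 CPM) and Jun (77.4 CPM). KO-aKG replicate 8 held the highest for Mthfd2 (33.3 CPM), Gars1 (119 CPM), Psat1 (119 CPM), Bcat1 (86.8 CPM), Herpud1 (85.4 CPM), Tsc22d3 (373 CPM) and Ifit3 (34.9 CPM). KO-aKG replicate 1 was highest for Cyb5r1 (51.1 CPM), Mars1 (20.1 CPM) and the hippocampus score (3.83), and KO-aKG replicate 7 for Cdr1os (213 CPM) and Cacna1a (95.03 CPM). Hcrt was highest in KO-aKG replicate 5 (188 CPM) and WT-Veh replicate 5 (10.9 CPM). WT-Veh replicate 2 was highest for Mthfd2 (12.4 CPM), Bcat1 (38.7 CPM) and the midbrain and hindbrain score (4.16). WT-Veh replicate 3 was highest for Mt3 (241 CPM) and lowest for Ndufb5 (156 CPM), WT-Veh replicate 9 highest for Shmt2 (17.3 CPM) and WT-Veh replicate 10 highest for Plin4 (1.04 CPM).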

How the results depend on the processing

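KO-aKG against WT-Veh gave 1263 calls as reported, 1666 with DESeq2, 1240 with DESeq2's size factors in edgeR, 693 without the low-count filter, 898 on the 2 groups alone, 1856 with 5 marker scores, 1510 without samples high in cerebellum markers, 1031 with a sex covariate, 879 and 868 with limma on deposited CPM + 1 and + 0.1 (854 higher and 25 lower, and 844 and 24), and 1002 with the length covariate. Leaving out 1 sample gave 818 (without KO-aKG replicate 8) to 1449 (without WT-Veh replicate 5). KO-aKG against KO-Veh gave 0 calls in edgeR, also in all 18 fits without 1 sample (0 to 0), 20 with DESeq2 and 101 with the length covariate. KO-Veh against WT-aKG gave 344 calls as reported, 856 with DESeq2, 190 without the filter, 627 in the 4-group fit, 182 without samples high in cerebellum markers, 138 with sex, 68 and 67 with limma, and 171 (without WT-aKG replicate 7) to 1646 (without KO-Veh replicate 7) when 1 sample was left out. Replicate numbers showed no clear pairing: 4 of 8 same-numbered KO-aKG and WT-Veh pairs had correlated deviations over 0.1 (range -0.45 to 0.29) and 1 of 8 correlated best with its own number. These deviations also hold differences in regional markers, so the check cannot exclude a pairing. With the replicate block the first comparison gave 1001 calls and KO-Veh against WT-aKG 100. Signs reversed for Hcrt (-0.20 with 5 marker scores), Pkm (0.021) and Rpl19 (-0.10), both with the length covariate. Of 93 named genes, 66 stayed called in all 18 fits without 1 sample. The cause of these shifts was not tested. With 5.77 M counts in the shallowest KO-aKG library, genes under about 1 CPM have few counts.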
